A study of Mus musculus with 16 samples.

Results

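Mouse chromosome 4 carries *Nfib* and *Mycl*, 2 transcription factor genes known to be amplified in mouse small cell lung cancer (SCLC). It held 5387 of the 80367 peaks that the authors listed as differing in accessibility between Hes1-GFP positive (GFPhigh) and Hes1-GFP negative (GFPneg) SCLC cells. All listed peaks of the chromosome were taken, from the list of peaks more open in GFPhigh cells (opened) and from the list of peaks less open there (closed), and were placed by their centres in 16 consecutive windows of 10 Mb. The last window is shorter, since the chromosome is 157 Mb long.

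The peaks came from ATAC-seq, in which the Tn5 transposase inserts adaptors where DNA is accessible. Both groups were sorted from tumors of the same *TKO*;*Hes1* GFP/+ mice, so both groups share the deletions of *Rb*, *p53* and *p130* (from the floxed alleles *Rb* fl/fl and *p53* fl/fl with *p130* fl/fl, recombined in the lung by an adenovirus with Cre under the CMV promoter, which is not limited to 1 cell type), and 1 allele of *Hes1* carried GFP. By the labels, 8 libraries, 4 GFPhigh and 4 GFPneg, came from 3 mice, and each was run on 2 lanes, giving 16 runs. The tumors of each mouse were pooled, and 1 mouse gave 2 of the 4 pairs as a technical replicate. By the study's methods, Cre was given to young adult mice of both sexes, and tumors were taken several months later.

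In SCLC, most cells keep the neuroendocrine (NE) features of the pulmonary neuroendocrine cell, such as neuronal genes and secretory granules, while Notch signalling, with *Hes1* as a target, moves some cells to a non-NE state with epithelial or mesenchymal features. Accessible sites are mainly promoters and enhancers. Promoters are often open in many cell types, while enhancers are often particular to a cell type, and the tumors' NFIB and L-MYC proteins are transcription factors that act on such sites. The labels were looked at first in marker genes on other chromosomes. *Hes1*, whose promoter drives the GFP, had 26 opened and 11 closed peaks, with 6 opened and no closed peaks at its promoters. *Rest*, a repressor of neuronal genes, and *Yap1*, a Hippo pathway coactivator, each had 3 opened and 0 closed peaks. The NE transcription factor gene *Insm1* had 0 opened and 28 closed peaks. *Chga*, the gene of the granule protein chromogranin A, had 8 opened and 6 closed peaks, and its promoter held 2 closed peaks and no opened one, while *Syp* (synaptophysin) had no listed peak.

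The deposited level of each peak is 1 mean normalized count over all libraries of both groups, so it tells how strong a site was and not in which group. No values per library were analysed here, hence the depth of the libraries is unknown, no test between the groups was run, and shares are given with Wilson intervals at 95% that cover counting error only. In every listed peak the authors' adjusted p was below 0.001 and the change was larger than 1 on the log2 scale, in either direction. Peaks that did not pass were not analysed here. Each list was made on the whole comparison, so a share below is a share of listed peaks and not of all accessible sites.

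The DNA of the strongest sites shows what was counted. Promoters and exons were left out, and the central 200 bp of each peak are printed on mm10 with matches to the searched motif strings in capitals. The first 5 peaks are those with the highest mean normalized counts of *Nfib* (opened and closed) and *Mycl* (closed), and the intronic peaks of *Mfsd2a* and *Tek* among the 3 strongest closed peaks of the chromosome. The last 3 were picked as the strongest closed peak with an AP-1 string and the strongest opened peaks with a TEAD or a RUNX string in unmasked sequence, to show sites with these strings.
Nfib opened peak, chr4:82304485-82304684, plus strand: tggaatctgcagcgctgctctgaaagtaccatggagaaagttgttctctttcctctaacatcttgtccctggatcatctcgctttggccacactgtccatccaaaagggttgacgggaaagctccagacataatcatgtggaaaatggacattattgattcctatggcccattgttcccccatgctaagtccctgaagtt
Nfib closed peak, chr4:82516485-82516684, plus strand: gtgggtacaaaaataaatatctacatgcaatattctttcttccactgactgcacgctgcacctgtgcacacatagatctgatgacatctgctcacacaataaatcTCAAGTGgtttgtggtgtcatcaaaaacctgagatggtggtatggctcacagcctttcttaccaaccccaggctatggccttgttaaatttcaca
Mycl closed peak, chr4:122998661-122998860, plus strand: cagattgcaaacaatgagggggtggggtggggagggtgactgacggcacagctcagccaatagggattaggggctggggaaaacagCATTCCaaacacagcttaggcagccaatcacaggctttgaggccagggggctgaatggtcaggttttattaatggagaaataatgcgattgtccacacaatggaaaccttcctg
Mfsd2a closed peak, chr4:122955325-122955524, plus strand: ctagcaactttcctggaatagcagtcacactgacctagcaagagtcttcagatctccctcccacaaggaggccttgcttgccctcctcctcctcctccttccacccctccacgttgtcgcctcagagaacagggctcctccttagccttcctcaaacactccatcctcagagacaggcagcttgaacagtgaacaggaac
Tek closed peak, chr4:94752589-94752788, plus strand: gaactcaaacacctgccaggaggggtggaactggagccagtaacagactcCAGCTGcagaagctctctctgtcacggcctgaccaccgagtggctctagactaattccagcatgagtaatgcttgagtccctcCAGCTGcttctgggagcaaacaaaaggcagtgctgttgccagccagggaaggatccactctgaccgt
Dhrs3 closed peak, chr4:144993731-144993930, plus strand: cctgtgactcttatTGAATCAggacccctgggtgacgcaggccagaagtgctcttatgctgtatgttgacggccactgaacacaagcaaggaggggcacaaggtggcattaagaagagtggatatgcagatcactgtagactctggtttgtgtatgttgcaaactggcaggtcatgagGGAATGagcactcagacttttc
Slc25a33 opened peak, chr4:149820646-149820845, plus strand: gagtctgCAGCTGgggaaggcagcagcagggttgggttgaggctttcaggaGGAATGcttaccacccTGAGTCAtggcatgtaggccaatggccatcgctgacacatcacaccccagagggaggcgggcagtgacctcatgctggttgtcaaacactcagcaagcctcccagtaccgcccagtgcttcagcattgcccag
Ubr4 opened peak, chr4:139386954-139387153, plus strand: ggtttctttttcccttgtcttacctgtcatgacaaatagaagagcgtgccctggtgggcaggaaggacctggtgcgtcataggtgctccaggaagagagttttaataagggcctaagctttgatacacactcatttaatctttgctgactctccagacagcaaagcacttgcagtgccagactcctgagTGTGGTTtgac
The opened *Nfib* peak and the closed *Mfsd2a* peak held none of the 11 searched strings in these 200 bp. The closed *Nfib* peak held 1 NKX2 string, the closed *Mycl* peak 1 TEAD string, and the closed *Tek* peak 2 copies of the E-box CAGCTG. The closed *Dhrs3* peak held an AP-1 and a TEAD string, as did the opened *Slc25a33* peak, which also held CAGCTG.

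Over the whole chromosome, opened and closed peaks were nearly balanced in number. Of the 5387 peaks, 2647 were opened and 2740 closed, so that 49.1% were opened (47.8 to 50.5%), against 50.8% of all listed peaks and 50.9% of those on the other chromosomes. Chromosome 3 was lower, at 41.7%, and chromosome 7, at 48.3%, was close to chromosome 4. Chromosome 4 had 34.4 listed peaks per Mb, against 29.5 per Mb over all chromosomes. The balance depended on the peaks counted, with 54.8% and 63.5% opened at mean normalized counts of at least 20 and 50, and 56.4% of the covered bases in opened peaks. The near balance of the whole chromosome did not hold within it.

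The opened share ranged from 8.79% to 74.6% over the 16 windows. In window 3 (20 to 30 Mb), 8 peaks were opened and 83 closed, a share of 8.79% (4.52 to 16.4%). Window 8 (70 to 80 Mb), with 17 opened and 116 closed peaks, had 12.8% (8.14 to 19.5%). Both windows are gene-poor, with 21 protein-coding genes each. At the other end, window 14 (130 to 140 Mb) held 543 opened and 185 closed peaks, or 74.6% (71.3 to 77.6%), and window 16 (from 150 Mb to the end) held 306 opened and 114 closed peaks, or 72.9% (68.4 to 76.9%). These windows are gene-rich and had 182 and 108 coding genes. The interval lay above the chromosome's own share in 4 windows, below it in 9 and across it in 3. On the other chromosomes, 241 full windows had opened shares from 9.23% to 85.2%, with a median of 44.6%, so that the highest window of chromosome 4 lay within that range and window 3 lay just under its lower end. That difference was not tested.

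**Figure D1:**
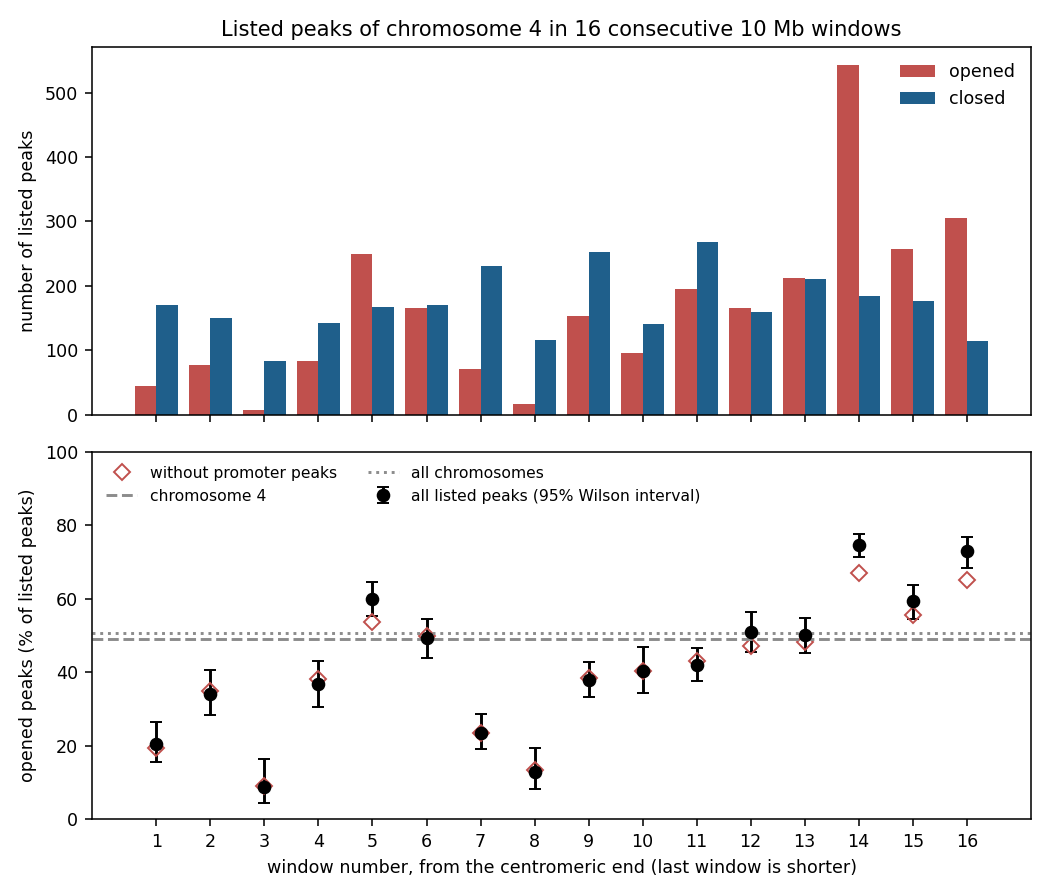
The upper panel plots the number of opened (red) and closed (blue) peaks in each 10 Mb window of chromosome 4, by window number. The lower panel plots the opened share in percent with its 95% Wilson interval (black) and without promoter peaks (open diamonds), with the shares of chromosome 4 (49.1%, dashed) and of all chromosomes (50.8%, dotted) as lines. Windows 3 and 8 are lowest, windows 14 and 16 are highest, and the diamonds follow the black points.

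Along the chromosome the shares did not follow 1 trend. The 4 windows nearest the centromere had opened shares of 20.5%, 34.2%, 8.79% and 36.7%. Window 5 stood above them at 60.0% (55.2 to 64.5%), with 250 opened and 167 closed peaks, and window 6 was at 49.3%. Windows 7 and 8 were low again, at 23.5% and 12.8%. From window 9 to window 13 the shares were 37.9%, 40.5%, 42.1%, 50.9% and 50.1%, and the intervals of neighbours in this stretch overlapped. Window 15, between the highest windows, had 59.3% (54.6 to 63.8%), and its interval overlapped neither of theirs.

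The number of opened peaks changed far more between windows than the number of closed peaks. Per Mb of known sequence, opened peaks ranged from 0.800 to 55.3, a 69.1-fold range with a coefficient of variation of 0.857. Closed peaks ranged from 8.30 to 26.8 per Mb, a 3.23-fold range with a coefficient of variation of 0.285. The other chromosomes had coefficients of variation of 0.687 and 0.368 over their 241 windows, so there too the opened density was the more uneven. Windows 14 and 16 alone held 849 opened peaks, 32.1% of those of the chromosome. Windows 5, 14, 15 and 16 together held 1357 (51.3%), while the 4 windows richest in closed peaks (7, 9, 11 and 13) held 35.1% of the closed peaks.

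The opened density went with the number of coding genes. Across the 16 windows, Spearman's rho between coding genes and density was 0.92 for opened and 0.44 for closed peaks, and over the 241 windows of the other chromosomes it was 0.71 and 0.07. These values are descriptions. Neighbouring windows, promoters and GC content are shared between the points, and the opened share had a rho of 0.91 with the GC content of the window. The 6 windows with over 100 coding genes held 31.2 opened and 18.2 closed peaks per Mb. The other 10 windows held 9.45 opened and 17.9 closed peaks per Mb, so the closed density was almost the same in both and the opened density was not. The opened share was 63.1% (61.3 to 64.9%) of 2749 peaks in the gene-rich windows and 34.6% (32.8 to 36.4%) of 2638 peaks in the others. No gene-rich window was below 50.1%, and no other window was above 49.3%. The limit of 100 coding genes was not set in advance, so the separation at it is a description only. Without promoter peaks this separation was lost, since the lowest gene-rich window had 47.3% and the highest other window 49.8%.

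**Figure D2:**
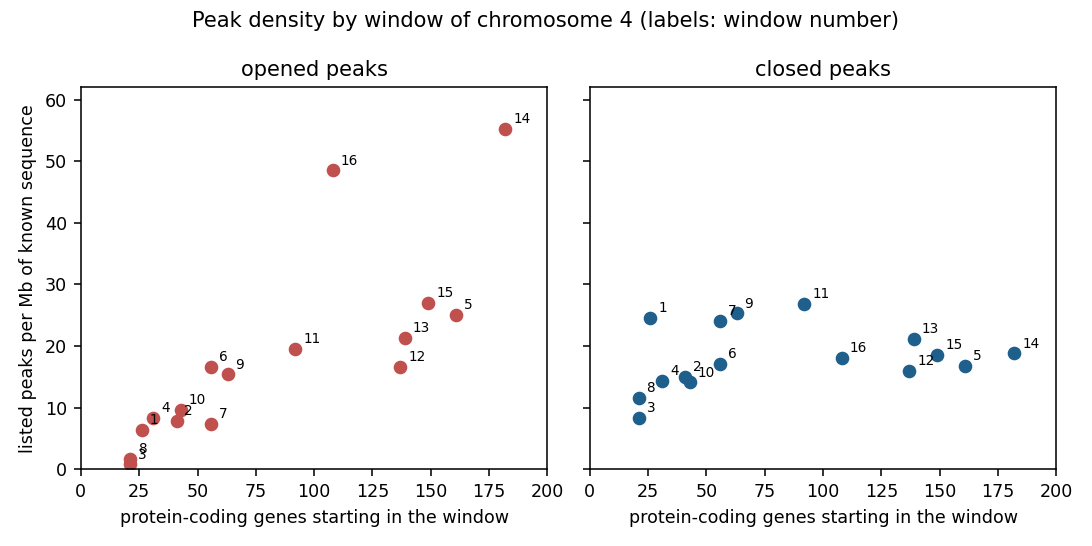
Each point is 1 window of chromosome 4, labelled by its number, with the number of protein-coding genes that start in it on the horizontal axis and its opened (left, red) or closed (right, blue) peaks per Mb of known sequence on the vertical axis. Opened peaks range from 0.800 to 55.3 per Mb and are densest in the gene-rich windows 14 and 16. Closed peaks stay between 8.30 and 26.8 per Mb.

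Promoters made up more of the opened than of the closed peaks. With a promoter taken as 1 kb to either side of an annotated start site, 587 opened peaks (22.2%, 20.6 to 23.8%) and 248 closed peaks (9.05%, 8.03 to 10.2%) were promoter peaks, against 22.3% and 9.68% over all chromosomes. Of the 835 promoter peaks of chromosome 4, 70.3% (67.1 to 73.3%) were opened, against 70.4% of all listed promoter peaks. The promoter peaks of the chromosome as a whole were thus at the background. Of its 1326 coding genes, 389 (29.3%) had an opened promoter peak, 114 (8.60%) a closed one and 14 both, against 26.6% and 8.45% of all coding genes.

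Between windows, the promoter peaks differed in the same direction as the other peaks, and by more. In window 14, 123 of the 182 coding genes had an opened promoter peak and 7 a closed one, and in window 16 these were 73 and 6 of 108. In windows 14, 16 and 5, 94.1%, 90.6% and 86.4% of the promoter peaks were opened. Of the 9 windows with at least 20 promoter peaks, 3 had under 50% opened, which were windows 6 (43.3%), 9 (29.2%) and 11 (35.3%). The gene-rich windows had 82.6% of their promoter peaks opened and the other windows 30.1%. Away from promoters the shares were 57.2% and 34.9%. The difference between windows was therefore present in both kinds of peaks, and over the 16 windows the share without promoter peaks ran from 9.09% in window 3 to 67.1% in window 14.

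Opened peaks were also wider and stronger. Their median width was 307 bp, against 244 bp for closed peaks. Their median mean normalized count was 45.2 (quartiles 20.6 and 115), against 25.7 (14.6 and 50.9) for closed peaks. Over all chromosomes the medians were 40.7 and 25.8. Across the windows, the opened median went from 27.5 in window 3 to 63.9 in window 14, while the closed median was highest in window 3, at 33.5, and lowest in window 16, at 17.9. In distance, the median opened peak was 14.8 kb and the median closed peak 41.5 kb from the nearest coding start site, and the median GC content was 52.4% and 49.6%. Over all chromosomes the opened and closed medians were similar, with widths of 300 and 248 bp, distances of 17.5 and 42.4 kb, and GC contents of 51.1% and 48.9%.

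The 3 strongest opened peaks lay at promoters. The highest mean normalized count, 1564, was at the promoter of *Camta1*, a calmodulin-binding transcription activator (chr4:151861402-151862821, mm10). Next were the promoter peaks of *Zbtb5*, a zinc finger gene, with 1442 (chr4:45011923-45013057), and of *Tgfbr1*, the type I TGF-beta receptor, with 1184 (chr4:47352854-47353806). Among the 3 strongest closed peaks, 1 was at a promoter. It had a count of 611 and lay at *Runx1t1*, a corepressor gene (chr4:13742757-13743935). The strongest closed peak of the chromosome, with 943, lay in an intron of *Mfsd2a*, a lipid transporter gene (chr4:122955091-122955758). The next, with 769, lay in an intron of *Tek*, the angiopoietin receptor (chr4:94752309-94753069).

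*Nfib*, a nuclear factor I gene, had more assigned peaks than any other gene named here, and most were closed. A peak was assigned to the coding gene with the nearest start site, at any distance, so assigned peaks can lie far outside a gene. *Nfib* (ENSMUSG00000008575.17, minus strand, chr4:82290173-82705750) received 58 peaks, 18 opened and 40 closed. Its opened peaks had mean normalized counts from 12.1 to 299 (median 31.5) and its closed peaks from 7.03 to 206 (median 27.8). The ranges overlapped, and the closed peaks reached lower and the opened peaks higher counts.

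The *Nfib* peaks lay on both sides of its coding start sites. The coding start sites of the basic annotation lie together at 82505308 to 82505770, while the annotated gene reaches 82705750. At these start sites there was 1 opened peak, with a count of 156 (chr4:82505704-82505972). On the upstream side of them, still inside the annotated gene, 18 of 19 peaks over 1 kb away were closed, the strongest with 206 at 10815 bp (chr4:82516428-82516741) and the next with 185 at 48207 bp. The 1 opened peak there had 56.9 and lay 161705 bp upstream of the start sites. On the downstream side, in the rest of the gene and beyond it, 16 of 38 peaks were opened and 22 closed. The strongest opened peaks were there, 1 with 299 in an intron 200723 bp from the start (chr4:82304114-82305056) and 1 with 248 at 57940 bp (chr4:82447051-82447684).

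*Mycl*, the gene of L-MYC, had closed peaks only. It is a short gene (ENSMUSG00000028654.13, plus strand, chr4:122995652-123002485) and was assigned 7 peaks, none of them opened. In order along the chromosome their mean normalized counts were 23.2, 148, 125, 71.4, 208, 290 and 85.9. The first 3 lay 12214 to 10675 bp upstream of the nearest coding start site. The fourth was the promoter peak, centred 796 bp downstream of the nearest coding start site (chr4:122996812-122996977), and the highest was in an intron, 2662 bp downstream of it (chr4:122998609-122998912). The strongest closed peak of the chromosome, that of *Mfsd2a*, lay 40.5 kb from the *Mycl* start. *Mfsd2a* itself had 2 opened and 8 closed peaks. Within 100 kb on either side of the *Mycl* start there were 7 opened and 23 closed peaks, and within 100 kb of the *Nfib* start 8 and 19. In these windows (13 for *Mycl* and 9 for *Nfib*) 50.1% and 37.9% of the peaks were opened. DNA copy number was not analysed here, and a difference in copy number and a difference in accessibility cannot be told apart in a listed peak.

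**Figure D3:**
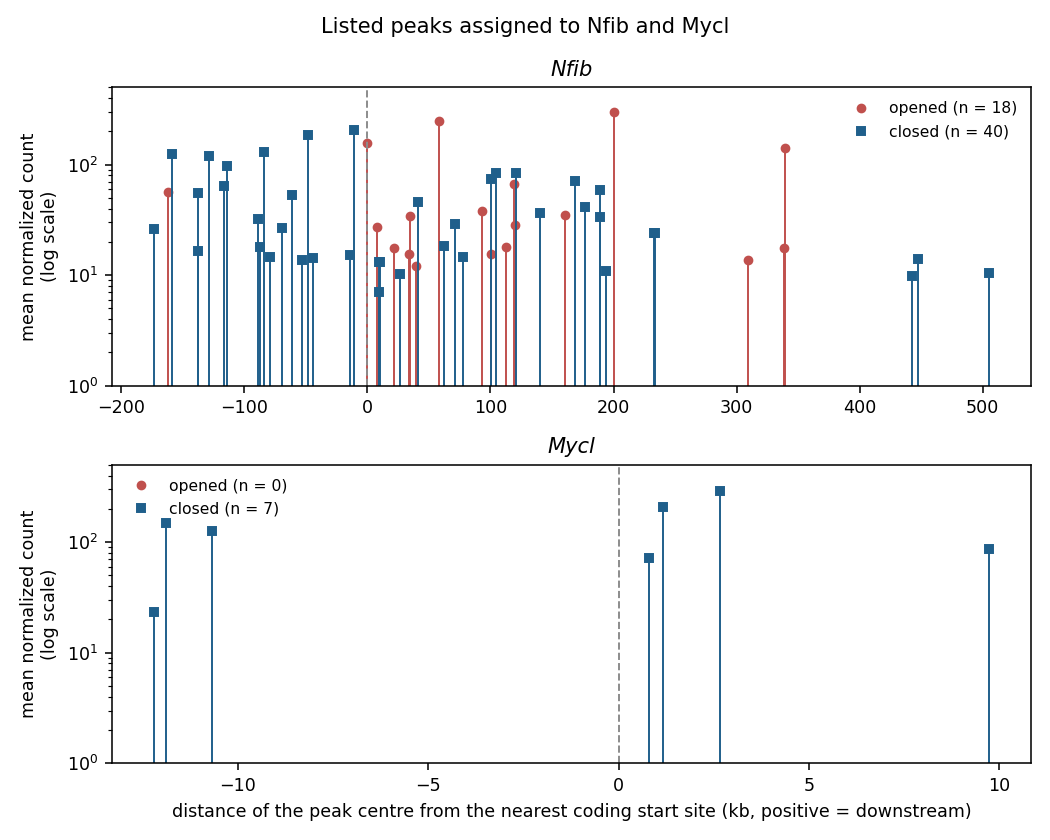
Each stem is 1 listed peak assigned to *Nfib* (upper panel) or *Mycl* (lower panel), at the distance in kb of its centre from the nearest coding start site (negative is upstream), with its mean normalized count over all libraries on a log scale. Opened peaks are red circles and closed peaks blue squares. On the upstream side of the *Nfib* coding start sites, still inside the annotated gene, 18 of 19 peaks over 1 kb away are closed, on the downstream side both lists occur, and all 7 peaks of *Mycl* are closed.

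Of the gene lists chosen by function, the neuronal one had mostly closed and the epithelial one mostly opened peaks. Of 31 neuronal and synaptic genes, 29 had a listed peak, 23 had more closed than opened peaks and 6 more opened than closed. Together they had 51 opened and 325 closed peaks, an opened share of 13.6% (10.5 to 17.4%), against 49.1% for all coding genes of the chromosome. Counting peaks within 10 kb of the gene body instead gave 21.4%. Of 30 epithelial, matrix and growth signalling genes, 29 had a peak, 23 had more opened and 5 more closed peaks. Their share was 71.6% (66.5 to 76.3%), with 235 opened and 93 closed peaks. Over all 1326 coding genes, 933 had a peak, 520 had more opened and 338 more closed peaks, and 75 had as many of each. Gene list and window were mixed. *Brinp1* and *Lingo2* of the neuronal list lie in windows with 23.5% and 36.7% opened peaks. *Ece1* and *Dhrs3* of the epithelial list lie in windows with 74.6% and 59.3%. Others do not follow this, as *Elavl4* lies in a window with 50.9% and *Plpp3* in 1 with 42.1%. The part of the window in the list shares was not tested. The lists were put together with earlier results of these data known, and no test of a list was run. A few genes stand in 2 of the lists, such as *Klf4*, *Grhl3* and *Tle1*.

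Among the neuronal genes, a few loci held many of the closed peaks. *Brinp1*, a neural gene that restrains the cell cycle, had 1 opened and 43 closed peaks with counts of up to 302. They lay up to 1062 kb from its start site, while the gene is 193 kb long. *Lingo2*, a neuronal membrane protein gene, had 0 opened and 43 closed, and *Astn2*, which acts in neuronal migration, 0 and 36. *Trim32*, which lies inside *Astn2*, was assigned a further 5 opened and 33 closed peaks. *Dab1*, the adaptor of reelin signalling, had 5 and 29. The neuronal RNA-binding protein genes *Elavl2* and *Elavl4* had 16 and 20 closed peaks and no opened one, and 4 and 5 of these were promoter peaks. *Ptprd*, a synaptic adhesion phosphatase, had 16 closed peaks, and the glutamate receptor gene *Grik3* had 10, again with no opened one. *Rims3* and *Rab3b*, which act in vesicle release, had 7 and 9 closed peaks and 0 opened.

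Some genes of the neuronal list were opened. *Stmn1*, a microtubule regulator, had 4 opened peaks with counts of up to 556 and no closed one, and *Megf6* had 7 opened and 0 closed. *Slc24a2*, a sodium, calcium and potassium exchanger, had 9 opened and 5 closed. *Camta1* held the strongest opened peak of the chromosome, at its promoter, and yet had 10 opened and 23 closed peaks in all. *Kcnab2*, a potassium channel subunit, had 1 peak, an opened promoter peak with a count of 636.

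Epithelial and signalling genes were mostly opened. *Plpp3*, a lipid phosphatase gene, had 26 opened and 3 closed peaks, and *Dhrs3*, a retinal reductase gene, 21 and 5. *Ece1*, the endothelin-converting enzyme, had 19 and 2. *Errfi1*, a feedback inhibitor of the EGF receptor, had 18 and 1, with opened counts of up to 387. *Grhl3*, a regulator of epithelial barrier genes, had 13 and 1, *Epha2*, a receptor of ephrins, 12 and 1, and *Sfn*, the epithelial 14-3-3 sigma gene, 6 and 0. *Cyp4b1*, an enzyme of club cells, had 5 opened and 0 closed peaks. The exceptions included *Frem1*, a basement membrane gene, with 0 opened and 9 closed peaks, *Mpdz*, a scaffold gene, with 10 and 19, and *Patj*, a polarity gene, with 6 and 10.

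**Figure D4:**
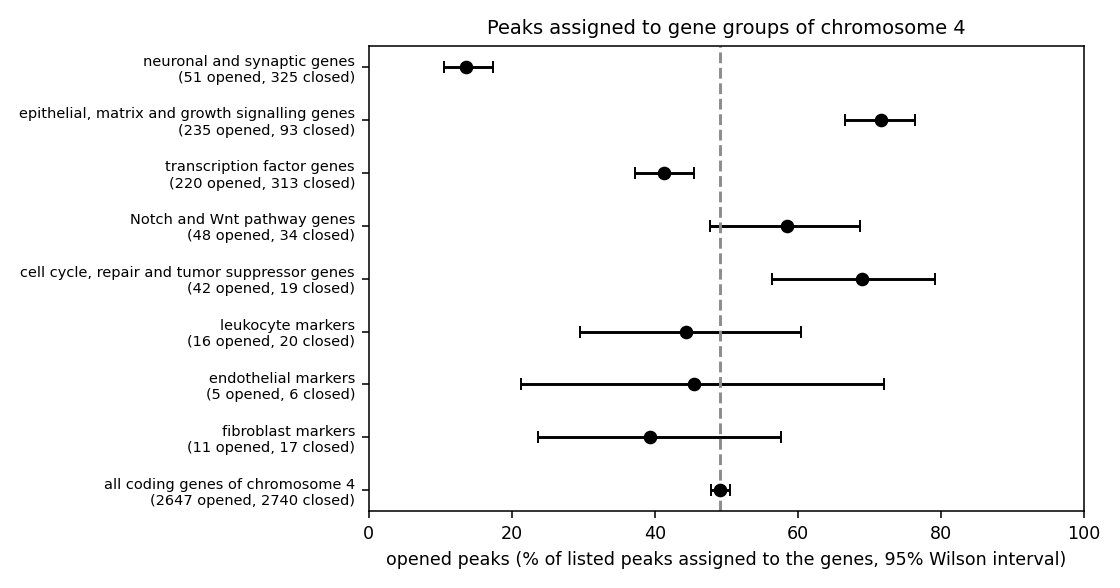
The opened share in percent of the listed peaks assigned to each gene group of chromosome 4 is plotted with its 95% Wilson interval, and the numbers of opened and closed peaks stand beside each name. The dashed line is the share of the chromosome, 49.1%. Neuronal and synaptic genes are at 13.6% (21.4% when peaks within 10 kb of the gene body are counted), and epithelial, matrix and growth signalling genes at 71.6%.

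Transcription factor genes stood on both sides. Of 38 on the chromosome, 37 had a peak, and 13 had more opened and 22 more closed peaks, against 520 and 338 of all coding genes. Of their peaks 41.3% were opened (37.2 to 45.5%), against 49.1% for the chromosome. Counting peaks within 10 kb of the gene body gave 48.0%, close to the chromosome. *Prdm16*, a zinc finger regulator, had 20 opened and 0 closed peaks, and *Nfia*, the other nuclear factor I gene of the chromosome, had 16 opened and 6 closed, the reverse of *Nfib*. *Bach2*, a leucine zipper repressor, had 22 and 18, and *Klf4*, an epithelial Krüppel-like factor, 13 and 9. *Jun*, an AP-1 subunit, had 14 and 17. *Zfp462* had 9 opened and 39 closed peaks, *Tox*, an HMG-box gene, 6 and 31, and *Dmrta2*, which acts in forebrain development, 0 and 21. *Pou3f2*, a neural POU factor, had 6 closed peaks, 2 of them at promoters, and no opened one.

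Smaller groups held fewer peaks, and most of their intervals included the share of the chromosome. The 11 Notch and Wnt pathway genes had 58.5% opened peaks (47.7 to 68.6%). *Hes5*, a Notch target, had 4 opened and 0 closed peaks, *Spen*, a corepressor of the Notch pathway's DNA-binding factor, 9 and 0, and *Tle1*, a Groucho corepressor, 7 and 16. Of 22 cell cycle, repair and tumor suppressor genes, 8 had no listed peak, and the peaks of the other 14 were 68.9% opened (56.4 to 79.1%). *Cdkn2b*, a CDK inhibitor, had 15 opened and 7 closed peaks, its neighbour *Cdkn2a* 3 and 3, and *Arid1a*, a chromatin remodelling subunit, 8 and 1.

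Markers of other cells were looked at on the same chromosome. The study's methods list CD45, CD31 and TER-119 among the stains of the sort, which mark leukocytes, endothelium and red cells and are commonly used to gate such cells out. Of 13 leukocyte markers, 11 had peaks, 5 had more opened and 5 more closed, and 16 of their peaks were opened and 20 closed, a share of 44.4% (29.5 to 60.4%) opened. Counting peaks within 10 kb of the gene body turned this to 63.6%. The pan-leukocyte gene *Laptm5* had 0 opened and 4 closed peaks, and the T cell kinase gene *Lck* 2 and 0. The 4 endothelial markers had 5 opened and 6 closed peaks, *Tie1* with 3 and 0 and *Tek* with 2 and 4, and the 3 of 4 fibroblast markers with peaks had 11 and 17. Peaks of all 3 marker lists were thus found among the opened and the closed peaks. Their part in the results above was not tested.

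In each window, the gene with the most opened and the gene with the most closed peaks differed. Near the centromere the closed peaks gathered at *Chd7*, a chromatin remodeller, with 2 opened and 35 closed peaks (window 1), and at *Runx1t1*, with 3 and 33 (window 2). The opened peaks of these windows were led by *Tox* and by *2610301B20Rik*, which had 10 opened and 13 closed. In window 3, *Usp45*, a deubiquitinase gene, led the opened peaks with 2, and *Ggh*, a folate hydrolase gene, led the closed ones with 13. In window 4 *Bach2* and *Lingo2* led. In window 5 *Shb*, an SH2 adaptor gene, had 21 opened and 2 closed peaks, while *Cavin4*, a caveolar protein gene, had 3 and 15.

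Farther along, *Epb41l4b*, a FERM domain gene, had 16 opened and 4 closed peaks in window 6, opposite *Zfp462*. In window 7, *Rgs3*, a regulator of G-protein signalling, had 15 and 15, opposite *Brinp1*. In window 8, *Tle1* led the opened peaks with 7, and *Cdk5rap2*, a centrosomal gene, had 1 and 21. *Adamtsl1*, a matrix gene, had 20 and 5 in window 9, opposite *Nfib*. In window 10 *Nfia* stood opposite *Fggy*, a carbohydrate kinase gene with 8 and 19, in window 11 *Plpp3* opposite *Dab1*, and in window 12 *Ptprf*, a receptor phosphatase with 10 and 2, opposite *Elavl4*. In the distal windows, *Macf1*, a cytoskeletal linker, had 14 and 4, and *Casz1*, a zinc finger gene, 15 and 18. *Matn1*, a cartilage matrix gene, had 0 and 13, at up to 437 kb from its start site.

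Neighbouring peaks tended to be from the same list. Of 5386 neighbouring pairs, 74.0% (72.8 to 75.1%) were of the same list, against 73.2% over all chromosomes. Under 1 kb apart, 94.8% of 939 pairs were alike, so close peaks are not independent and the intervals given here are too narrow in this respect. At 1 to 10 kb the share was 72.0%, at 10 to 100 kb 67.7%, and over 100 kb 68.1% (61.9 to 73.8%) of 232 pairs, against 64.4% over all chromosomes at that distance. Pairs over 10 kb apart thus still fell together more often than not. The balance of opened and closed peaks differs between windows, and its part in these shares was not tested.

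Long runs of 1 list gave the chromosome its blocks. The longest closed run had 72 peaks over 1272 kb, from *Trim32* through *Astn2* to *Tlr4* in window 7 (chr4:65444583-66716118), and another closed run of 61 peaks over 2304 kb went on from *Tlr4* to *Brinp1*. A closed run of 71 peaks over 4804 kb covered *Lingo2*, and 1 of 55 peaks over 1651 kb covered *Dmrta2*, *Elavl4* and part of *Agbl4*. The 4 longest opened runs were in windows 14 and 16. One had 45 peaks in 410.7 kb, from *Ttc34* past *Hes5* and *Ski* to *Faap20* in window 16 (chr4:154839537-155250253), and one of 33 peaks over 464.1 kb, from *Id3* to *Kdm1a*, lay in window 14. An opened run of 32 peaks over 278.3 kb held peaks of *Prdm16* and covered part of that gene. The fourth, of 28 peaks over 287.1 kb, went from *Nadk* to *Dvl1* in window 16. The next opened run, of 27 peaks over 918.6 kb, lay in window 6 and held peaks assigned to *Akap2*, *Musk* and *Lpar1*.

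Some stretches held no listed peak at all. The widest was 2360 kb long and held 10 coding genes, all of the *Skint* family, which acts in skin T cell selection. Others were 2245 kb with *Mmp16* alone, 2036 kb with a cluster of zinc finger genes, and 1903 kb with the *Mup* genes of major urinary proteins. The members of these families have near-identical copies, so that counts of peaks there are uncertain.

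The sequences of the opened and closed peaks differed. The central 200 bp of each peak were searched on both strands for 11 exact strings, and the same was done in 746639 tiles of 200 bp outside listed peaks on the chromosome. The tiles had a mean GC content of 42.1%, below the medians of 52.4% for opened and 49.6% for closed peaks. The tiles were not matched to the peaks in GC content, and its part in differences from the tiles was not tested. The AP-1 string TGANTCA, bound by JUN and FOS proteins, was in 9.18% of opened peaks (8.14 to 10.3%), in 25.1% of closed peaks (23.5 to 26.8%) and in 5.85% of the tiles. The E-box CAGCTG, bound by basic helix-loop-helix factors, was in 12.8% of opened peaks (11.6 to 14.1%), 22.8% of closed peaks (21.3 to 24.5%) and 7.38% of tiles. The FOX string TGTTTAC was in 5.97% and 9.20%, against 2.83% of tiles. These 3 strings were more frequent in the closed peaks.

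Over all peaks of the chromosome, the other 8 strings were more frequent in the opened ones. The TEAD string GGAATG, bound by the partners of YAP1, was in 17.0% (15.6 to 18.5%) of opened peaks and 8.94% (7.93 to 10.1%) of closed peaks, with 10.7% of tiles between them. The RUNX string TGTGGTT was in 8.16% and 3.72%, with 4.79% of tiles, and was likewise below the tiles in the closed peaks. The GRHL string AACCNGTT was in 3.59% and 1.72%, the RBPJ string GTGGGAA, of the Notch pathway, in 6.04% and 3.83%, and the KLF string GGGTGTGG in 4.80% and 2.26%. For the NFI string TTGGCA, which the NFIB protein can bind, the shares were closer, at 17.2% (15.8 to 18.7%) and 14.1% (12.8 to 15.4%), against 9.69% of tiles. The NKX2 string CACTTNA was in 17.5% and 14.6%, and the ETS string CCGGAAGT in 1.47% and 0.365%. Strings can overlap, since the end of the RBPJ string can be the start of the TEAD string. On the other chromosomes each contrast had the same direction, with AP-1 in 10.7% and 26.5% and TEAD in 18.2% and 8.75%. In opened peaks, 2 strings had intervals there that did not overlap those of chromosome 4. These were AP-1 (10.4 to 11.0% there) and KLF (3.43 to 3.80% there, 4.05 to 5.68% on chromosome 4).

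The AP-1 and TEAD contrasts were also present without promoter peaks. There, AP-1 was in 10.3% of opened and 25.5% of closed peaks, and TEAD in 19.3% and 8.99%. For the ETS string the intervals overlapped, with 0.631% (0.369 to 1.08%) of opened and 0.321% (0.163 to 0.632%) of closed peaks away from promoters, and 26 of the 39 opened peaks that held it were promoter peaks. The AP-1 contrast was present in all 16 windows. In the closed peaks the AP-1 share ran from 20.5% in window 14 to 30.1% in window 3, and in the opened peaks from 0 of 8 peaks in window 3 to 13.6% in window 15. The TEAD share was higher in the opened peaks of 15 windows, and in window 10 it was 10.4% in opened and 12.1% in closed peaks. The FOX share was higher in the closed peaks of 12 windows and in the opened peaks of the other 4. Of the 40 closed *Nfib* peaks 8 held the AP-1 string, 9 CAGCTG and 11 the NFI string, and of its 18 opened peaks 2, 2 and 2 did, while the RUNX string was in 5 of the 18 and 2 of the 40. Of the 7 closed *Mycl* peaks 3 held CAGCTG.

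**Figure D5:**
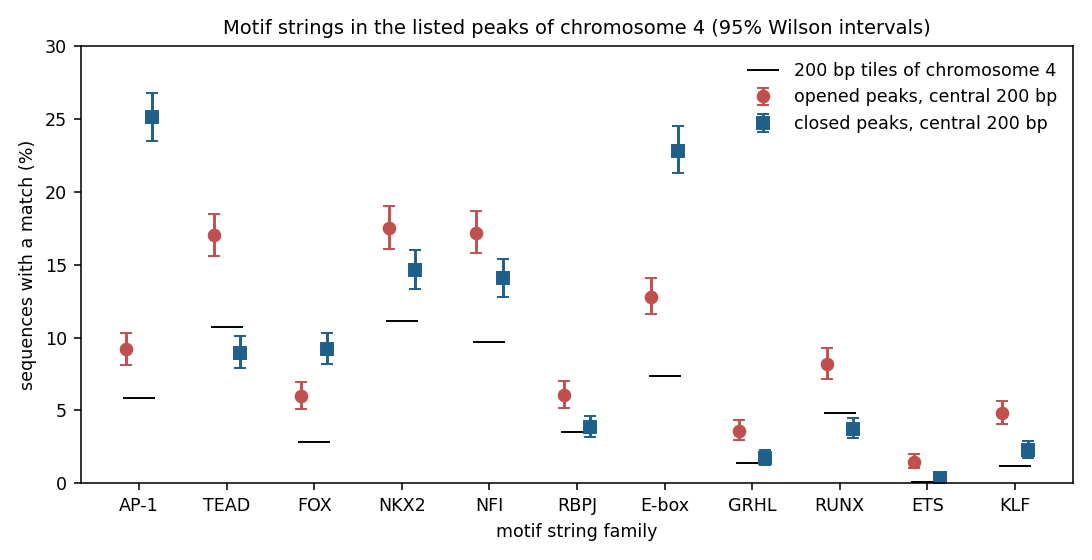
For each family of motif strings, the percent of opened (red circles) and closed (blue squares) peaks of chromosome 4 with a match in the central 200 bp is plotted with its 95% Wilson interval, and a black bar gives the percent of the 746639 tiles of 200 bp outside listed peaks. AP-1 is at 9.18% and 25.1%, E-box at 12.8% and 22.8%, and TEAD at 17.0% and 8.94%.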

How the data were processed

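By the study's methods, the authors trimmed the reads, aligned them to mm10 with Bowtie2 (2.3.4.1 in the submitters' processing notes), removed duplicates with Samtools, called narrow peaks with MACS2, merged the peaks of all samples, counted reads per peak with bedtools and compared the groups with DESeq2 (1.28.1). The authors deposited 1 list of opened and 1 of closed peaks. The signal used here is the authors' mean normalized count over all libraries. The other deposited columns hold the authors' own comparison, that is log2 fold changes with their errors, a score (the test statistic) and p-values with adjusted p-values. They were read only to check the limits of the lists, and their values are not reported. Counts per library were not analysed here, so depth is unknown.

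Positions are 1-based on mm10, with sequence from GRCm38 and the basic GENCODE annotation. Peaks were classed by their centre, as promoter (start site at most 1 kb away), exon, intron or intergenic, and assigned to the nearest protein-coding start site. Shares have Wilson intervals (95%, scipy 1.17.1, with Python 3.11.15, numpy 2.4.6 and pandas 2.3.3), and the scripts were tested on simulated data. No test between groups was run. Named genes are *Nfib*, *Mycl*, members of 8 gene lists with many peaks, and the genes leading each window. Named single peaks are the 3 strongest of each list and the strongest of *Nfib* and *Mycl*. The genes of the label check, *Mfsd2a* as a gene, examples with few peaks, and the peaks picked to show strings were chosen after their values were seen. The members and lists were chosen with earlier results of these data known. Alternatives were minimum counts, merging of near peaks, leaving out promoters, covered bases, moved windows, a wider promoter, coding start sites only, counts per kb, distant neighbours, whole peaks in the motif search, and other assignments of peaks to genes.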

Additional observations from a re-analysis of the deposited data

How the results depend on the processing

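No paired analysis was run because no values per library were analysed here, only values per peak over the whole comparison. For the same reason no replicate was left out. The opened share of the chromosome, 49.1%, rose to 54.8% and 63.5% with a mean normalized count of at least 20 and 50, was 45.3% without promoter peaks, and was 56.4% when covered bases replaced peaks. Which list was larger thus depended on the weight given to strong and wide peaks. The highest window share, 74.6%, was 86.8% (106 peaks in the short last window) with windows moved by 5 Mb, 82.5% with counts of at least 20 and 67.1% without promoters, while the lowest stayed at 8.86% to 11.9%. With moved windows the lowest was the stretch from 65 to 75 Mb, with 33 opened and 245 closed peaks. The promoter shares of 22.2% and 9.05% became 31.8% and 15.8% within 3 kb, and 19.3% and 6.46% with coding start sites only. The median counts of 45.2 and 25.7 became 160 and 111 per kb of peak. Neighbours over 10 kb apart were alike in 67.8%. In whole peaks, AP-1 was in 14.1% of opened and 27.9% of closed peaks, and TEAD in 24.7% and 11.9%. Counting peaks within 10 kb of the gene body gave opened shares of 21.4% for neuronal genes, 48.0% for transcription factor genes and 63.6% for leukocyte markers, whose share thus passed that of the chromosome. *Nfib* kept 8 opened and 19 closed peaks within 100 kb of a start site, and *Mycl* had 4 closed peaks within 10 kb of its body. Of 114 alternative values, 65 stayed within the interval, quartiles or count limit of the main value. Signals without a depth per library limit all of these, and none of the intervals covers the spread between mice.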
